A study of Mus musculus with 4 samples.

Results

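The tubulin and cytoplasmic actin genes examined were the actins Actb and Actg1, the alpha-tubulins Tuba1a, Tuba1b and Tuba1c, and the beta-tubulins Tubb5, Tubb2a, Tubb2b, Tubb3 and Tubb4b. They were chosen by symbol, as the rows of the site tables listed under these 10 names, and all 10 had listed sites in every library, among 20001 genes in the tables. The measurements are GLORI profiles of polyA RNA from day 6 mouse organoids of an Rx:GFP line, a single reporter line for retinal cells. Every sample, controls included, carries FKBP12F36V-HA at the C-terminus of endogenous Mettl3, whose protein catalyses most m6A formation in mRNA. The 2 untreated libraries (dTAG13, 0 h) were compared with 2 libraries given 125 nM dTAG13 for 8 h and harvested together with them. All 4 share one batch label. dTAG13 is a small molecule that directs proteins with this degron to the proteasome. The genotype label names another Mettl gene in 3 of the 4 samples, while the series design names METTL3. METTL3 protein is not measured in these tables. The labels do not say whether replicates came from separate cultures, so the spread between them may be technical.

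Tubulin alpha and beta subunits form the heterodimers from which microtubules are built, and beta- and gamma-actin form the microfilaments of non-muscle cells. Dividing neural progenitors use both for the mitotic spindle, nuclear migration and apical junctions, and Tubb3 is widely used as a marker of new neurons. Tubulin messages are known for autoregulation, in which free tubulin triggers decay of the mRNAs that are being translated into tubulin. Actb and Actg1 are classical targets of serum response factor. In GLORI, unmethylated A is converted and read as G, whereas m6A is still read as A. The level of a site is therefore its A reads as a percent of its A and G reads.

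Only called sites are listed. The lowest values among them were 15 reads (A plus G), 5 reads of A and a level of 10%. A position absent from a table can be below these limits or uncovered, and its reads are not given. The untreated libraries listed 150 and 125 sites in the 10 genes, and the dTAG13 libraries 131 and 136. The reads at these sites were deep, with medians of 263.5 and 339 without and 323 and 244 with dTAG13, against 75 to 91 over all listed sites of the series. All 6 retinal progenitor markers (Rax, Six3, Six6, Lhx2, Pax6 and Sfrp2) had a value in all 4 libraries. Their coverage, which is not normalised to depth, summed to 3703 and 4700 in the untreated and 2583 and 3478 in the dTAG13 libraries. Sfrp2 was the largest part of each sum (1786 and 2407 without, 1174 and 1493 with dTAG13). Rax was at 213.1 and 273.6 without and 227.5 and 297.7 with dTAG13. All 6 pluripotency markers were also listed in all 4 libraries (summed coverage 994.1 and 1030 without, 737.8 and 946.9 with dTAG13), with Dppa5a the highest. Of 8 early neuronal markers, Stmn2 alone was listed in all 4 libraries (39.6 to 45.0), and Pou4f2 was listed in none. Gap43 (68.9 to 100.0) and Elavl4 (44.7 to 69.9) lacked a value only in dTAG13 replicate 2. A gene has a value only where a site was called in it, so an unlisted marker may still be expressed. Of the pigment epithelium markers 2 of 4 were listed in all 4 libraries (summed coverage 222.5 to 298.2), of the mesenchyme and muscle markers 3 of 6 (152.5 to 248.6), and of the endothelium and blood markers 1 of 5 (33.0 to 130.8). Rpe65, Ptprc, Hba-a1 and Hbb-bs were listed in no library. The part of these cell types in the results was not tested.

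The number of listed sites in the tubulin and actin genes was almost the same with and without dTAG13, but sites at a level of 40% or more were fewer with it. The mean number was 137.5 ± 17.7 without and 133.5 ± 3.54 with dTAG13 (SD, n = 2 each), a ratio of 0.971. The groups overlapped (two-sided exact permutation test, p = 1). Over all sites inside genes the same ratio was 0.714. Sites at a level of 40% or more numbered 25 and 23 without and 14 and 17 with dTAG13, a ratio of 0.646 (0.772 over all sites inside genes). The groups did not overlap (exact permutation test, p = 0.33, the smallest that 2 against 2 libraries allow). The contrast was sharper at well-covered positions. With at least 200 reads, the sites at 40% or more numbered 9 and 5 without and 1 and 1 with dTAG13, a ratio of 0.143. Over all sites inside genes the ratio was 0.701, with 5268 and 5456 such sites without and 2331 and 5185 with dTAG13. That background ratio thus came mostly from dTAG13 replicate 1. All listed sites with at least 200 reads numbered 87 and 77 without and 83 and 78 with dTAG13. The 40% limit was chosen after the data were seen, and a limit of 90% turned the order. Sites at 90% or more numbered 3 and 2 without and 4 and 4 with dTAG13 (ratio 1.6, against 0.849 over all sites inside genes), and with at least 50 reads 2 and 1 against 3 and 0.

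By gene, most numbers of sites overlapped between the groups. Tubb4b had 4 and 3 sites without and 11 and 4 with dTAG13. Tubb2b had 8 and 7 without and 9 and 16 with dTAG13. In these beta-tubulin genes both dTAG13 values were at or above the untreated ones. Tuba1b had 27 and 17 sites without and 18 and 9 with dTAG13, and Tuba1a had 21 and 9 against 6 and 15, so that both alpha-tubulins overlapped between groups. Tubb3 had 15 and 19 without and 16 and 26 with dTAG13. Tubb2a had the fewest sites, 5 and 4 against 2 and 4. For Actb the numbers were 22 and 17 against 22 and 15, and for Actg1 25 and 19 against 16 and 22. Tubb5 had 14 and 15 against 22 and 10, and Tuba1c 9 and 15 in both groups.

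The replicated sites of both actin genes included the clearest differences. In Actb, the beta-actin gene, the site at chr5:142889288 (minus strand) was at 32.0% of 6222 reads and 33.6% of 8030 reads in the untreated libraries. It was at 10.1% of 3066 reads in dTAG13 replicate 1 and was not listed in dTAG13 replicate 2. That library listed a position 38 bases away with 1987 reads, so the surrounding transcript was well covered there. With dTAG13, the site thus lay at the listing limit in one library and was unlisted in the other. A second Actb site, chr5:142889548, was at 67.8% of 342 reads and 54.5% of 198 reads without dTAG13 (61.2% ± 9.40, SD, n = 2) and was listed in neither dTAG13 library. The nearest listed positions in those libraries, 51 and 61 bases away, had 243 and 284 reads. Both sites lay 3′ in the listed span of the gene, 400 and 660 bases from its 3′-most listed position within a span of 3553 bases. The other replicated Actb sites were weak. At chr5:142890433 the level was 11.9% and 15.9% without dTAG13, and neither dTAG13 library listed it. At chr5:142892411 it was 12.2% and 12.7% without and 13.1% in dTAG13 replicate 1, so this upstream site did not show the difference of the 3′ sites.

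Actg1 encodes gamma-actin, the second cytoplasmic actin. Its site at chr11:120238078 (minus strand) was at 85.6% of 1976 reads and 82.6% of 2534 reads without dTAG13 (84.1% ± 2.17, SD, n = 2), and neither dTAG13 library listed it. In the dTAG13 libraries positions 4 and 25 bases away were listed with 892 and 1704 reads, at 10.9% and 10.3%. The strongest reproducible actin site was thus missing from both dTAG13 tables while its immediate neighbours were well covered. An unlisted position is nevertheless no proof of lost methylation. A second strong site of Actg1, chr11:120237211, was at 84.9% of 2757 reads in untreated replicate 2 and was not listed in untreated replicate 1 or in either dTAG13 library.

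Among the beta-tubulins, Tubb5, which encodes the class I beta-tubulin of dividing cells, had the deepest strongly methylated site. At chr17:36146345 (minus strand) the level was 85.5% of 3761 reads and 72.7% of 4546 reads without dTAG13. It was 10.9% of 4774 reads in dTAG13 replicate 2, and dTAG13 replicate 1 did not list the site. The nearest listed position in dTAG13 replicate 1 was 169 bases away with 238 reads. Weaker sites of Tubb5 were listed in both untreated libraries at chr17:36145445, at 18.5% and 10.6%, and at chr17:36145555, at 12.9% and 11.4%. The first was in neither dTAG13 library, and the second was at 10.7% in dTAG13 replicate 1. In Tubb4b, a broadly expressed class IV beta-tubulin, chr2:25112283 (minus strand) was at 82.3% of 372 reads and 84.5% of 509 reads without dTAG13. Neither dTAG13 library listed it, and dTAG13 replicate 1 listed a position 11 bases away with 466 reads at 10.5%. In dTAG13 replicate 2 the nearest listed position was 806 bases away, so its local coverage is unknown.

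Tubb2a, a neuronally enriched beta-tubulin, had a near-complete site at chr13:34258448 (minus strand), at 99.4% of 161 reads and 100% of 54 reads without dTAG13. It was at 33.3% of 69 reads in dTAG13 replicate 2 and unlisted in dTAG13 replicate 1, whose nearest listed position was 881 bases away. Tubb2b, its close paralogue, had 1 site in both untreated libraries, chr13:34312095, at 12.5% and 10.0%, and neither dTAG13 library listed it. In Tubb3, the neuronal class III beta-tubulin, the 1 site listed in both untreated libraries was discordant between them. At chr8:124148509 (plus strand) it was at 45.1% of 224 reads and 13.2% of 250 reads, and at 28.7% of 178 reads in dTAG13 replicate 2, so the dTAG13 value lay between the untreated ones. Another Tubb3 site, chr8:124148711, was at 87.5% of 24 reads in untreated replicate 1 and at 13.8% of 58 reads and 14.2% of 113 reads in the dTAG13 libraries, with no value in untreated replicate 2.

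Among the alpha-tubulins, the replicated sites that differed most were of unlike strength. Tuba1c had a site at chr15:98935574 (plus strand), at 46.2% of 1774 reads and 51.8% of 2588 reads without dTAG13 and at 11.5% of 1274 reads in dTAG13 replicate 1. dTAG13 replicate 2 did not list it, but it listed a position 39 bases away with 1311 reads. In Tuba1a, the main alpha-tubulin of developing neurons, chr15:98848657 (minus strand) was at 18.4% of 1558 reads and 20.0% of 2062 reads and was listed in neither dTAG13 library. Positions 52 and 27 bases away had 474 and 1276 reads there. It was not the strongest replicated site of Tuba1a, which was chr15:98848744 and was listed in all 4 libraries. Tuba1b, a ubiquitous alpha-tubulin, had no strong site that agreed between the untreated libraries. Its site chr15:98830248 was at 60.4% of 106 reads in one and 17.4% of 69 reads in the other, and its sites chr15:98829497 and chr15:98829785 were at 23.9% and 10.5% and at 15.1% and 14.2%. None of these 3 sites was listed with dTAG13. A further Tuba1c site, chr15:98932450, was at 19.2% and 12.6% without and 26.1% in dTAG13 replicate 2, above both untreated values. The 3 alpha-tubulin genes are close in sequence, and how reads matching several of them were counted is not given in the sources used here, so the share of each gene is uncertain.

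**Figure D1:**
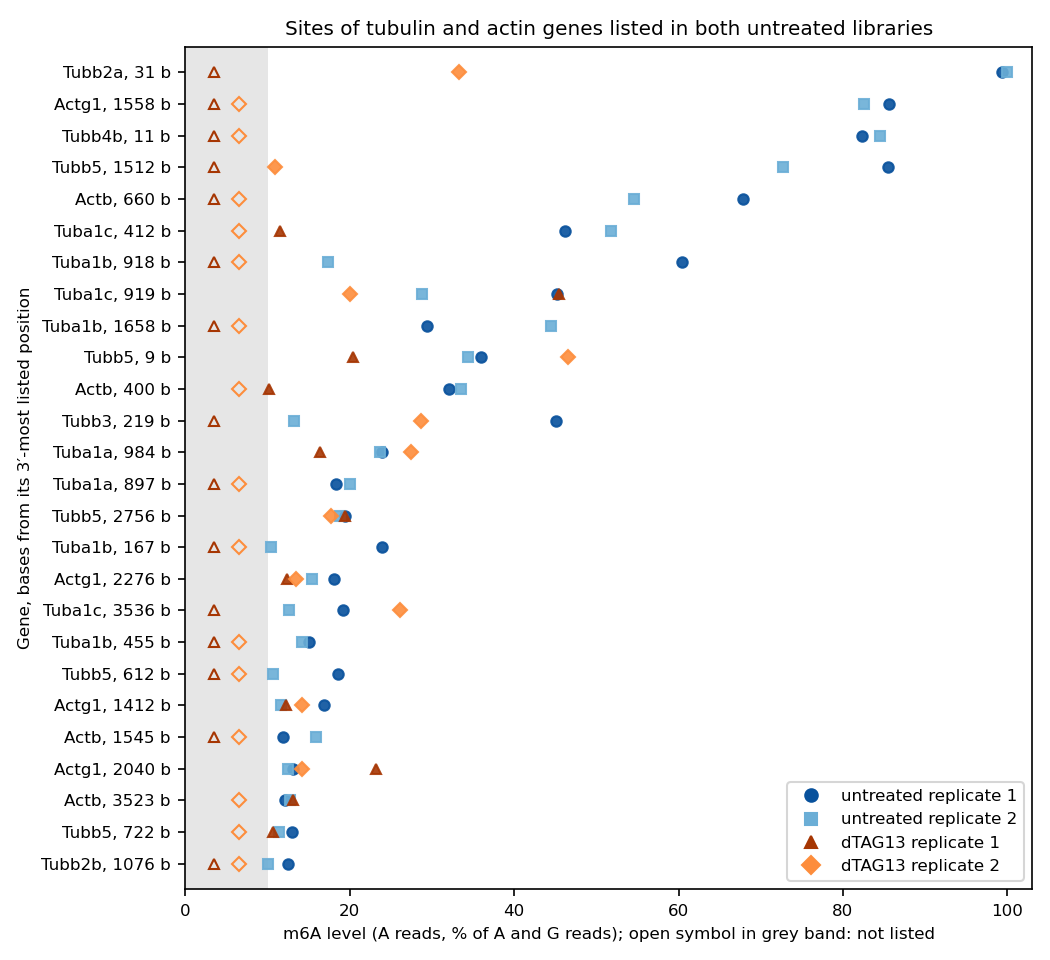
m6A level of the 26 sites of the 10 genes listed in both untreated libraries (x axis, A reads as a percent of A and G reads), ordered by their untreated mean, with each site named by its gene and its distance in bases from the 3′-most listed position. Filled symbols are the 4 libraries and open symbols in the grey band mark libraries that did not list the site; among the 5 sites with the highest untreated mean, the dTAG13 libraries gave 2 values, 33.3% in Tubb2a and 10.9% in Tubb5.

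**Figure D2:**
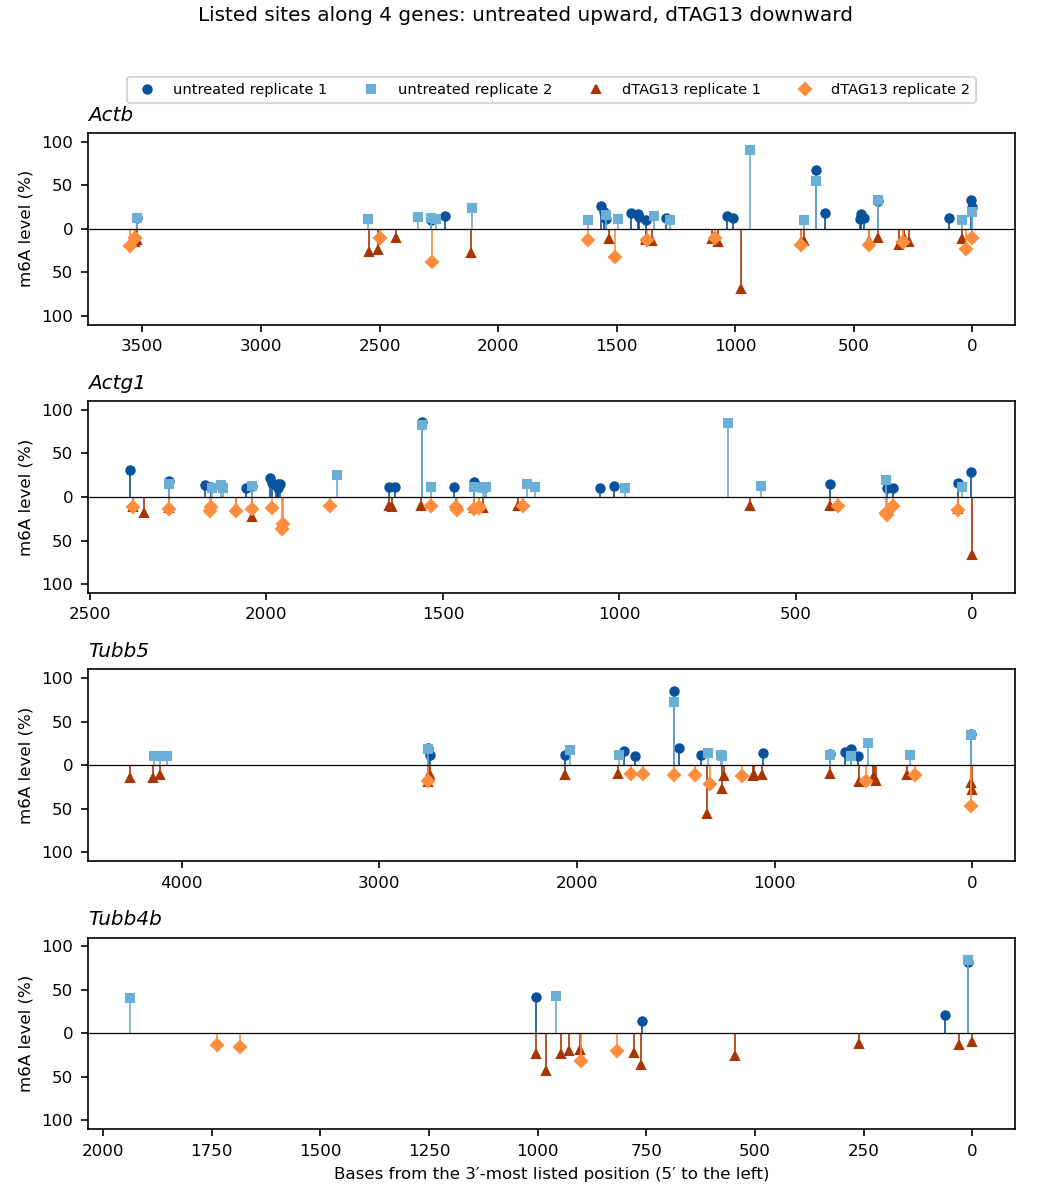
Listed sites along Actb, Actg1, Tubb5 and Tubb4b by distance from the 3′-most listed position of each gene (x axis, bases) with their level (y axis, percent), untreated libraries drawn upward and dTAG13 libraries downward. The untreated sites at 85.6% and 82.6% in Actg1 and at 82.3% and 84.5% in Tubb4b have no counterpart below the axis.

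Over the 10 genes together, 25 sites were listed in both untreated libraries with at least 50 reads in each, and 10 of them (40.0%) were in neither dTAG13 library. Over all genes this held for 77.5% of 19182 such sites, and with at least 200 reads for 7 of 20 member sites against 69.8% overall. Below an untreated mean of 40% it held for 7 of 19 member sites, against 75.8% over all genes. At an untreated mean of 40% or more it held for 3 of 6 member sites, those of Actb, Actg1 and Tubb4b above, against 82.3% over all genes. The other 3, in Tuba1c, Tubb5 and Tubb2a, were each listed in 1 dTAG13 library, at 11.5%, 10.9% and 33.3%. The member share was thus below the background in each class. The 6 member sites of the higher level class were either unlisted or lower in every dTAG13 library. They were picked for high levels in the untreated libraries, which by itself favours lower values elsewhere. How often this held over all genes was not computed, so it is not read as particular to the members.

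In the other direction, 17 sites were listed in both dTAG13 libraries with at least 50 reads, and 9 of them were in neither untreated library (66.6% over all genes). These 9 sites were all weak. Their levels lay between 10.6% and 33.6%, and the highest single value was in Tuba1b at chr15:98829678, at 12.9% of 155 reads and 33.6% of 128 reads. In Actb, chr5:142889326 was at 14.2% of 1107 reads and 18.7% of 1987 reads. In Actg1, chr11:120238607 was at 12.6% of 1376 reads and 16.3% of 2747 reads. The neuronal Tubb3 had 1 such site, chr8:124148107, at 19.9% of 156 reads and 15.4% of 370 reads. The other 5 did not exceed 14.9%. They were chr5:142892420 in Actb (14.9% and 11.0%), chr11:120237983 (10.7% and 11.4%) and chr11:120238897 (11.1% and 12.04%) in Actg1, chr15:98849190 in Tuba1a (10.6% and 14.2%) and chr15:98829813 in Tuba1b (11.7% and 13.5%). None of the 17 had a dTAG13 mean of 40% or more.

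The recovery of untreated sites in a second library differed by level. Untreated replicate 1 had 132 member sites at 50 reads or more. Untreated replicate 2 listed 19.7% of these (13.8 to 27.3%, Wilson 95%), and each dTAG13 library 14.4% (9.41 to 21.4%). Of the 16 among them at 40% or more, 9 were listed in untreated replicate 2, 2 in dTAG13 replicate 1 and 4 in dTAG13 replicate 2. With untreated replicate 2 as reference, the 16 sites at 40% or more were found in 6, 1 and 2 cases in untreated replicate 1 and the dTAG13 libraries. Sites of the dTAG13 libraries recurred at like rates in both groups. Of 120 sites in dTAG13 replicate 1, 18 and 13 were in the untreated libraries and 17 in dTAG13 replicate 2. Of 126 in dTAG13 replicate 2, 19 and 20 were in the untreated libraries and 18 in dTAG13 replicate 1. The 6 sites of dTAG13 replicate 1 at 40% or more were in 0 of the other 3 libraries, and of 9 in dTAG13 replicate 2, 1 was in each. For untreated sites, the dTAG13 share relative to the untreated share was 0.705 on average at all levels and 0.292 at 40% or more. Recovery was not computed over all genes, so these values are not read as particular to the members. The intervals count sites as if they were independent, although many are neighbours in the same gene and library. They do not cover the spread between libraries. Reads were also not known to be separate molecules.

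Most member sites were seen once. Of 454 positions listed in any library, 390 (85.9%) were in 1 library, 47 in 2, 10 in 3 and 7 in all 4, and over the whole series 92.6% were in 1 library. The single-library sites had a median level of 15.8% and a median of 239 reads, so many lay near the listing limit. Sites listed in 2 or more libraries had a similar median level of 16.3% and a median of 488 reads, taking each site's mean. Of the single-library sites, 58 were at 40% or more and 11 at 90% or more. The latter 11 were mostly thin, with a median of 27 reads. The exception was Tubb2a at chr13:34259181, at 100% of 303 reads in untreated replicate 1.

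Strong sites were also listed with dTAG13, mostly in 1 library and with few reads. With at least 50 reads, the highest dTAG13 levels were in Tubb2b, at 98.4% of 62 reads (chr13:34311019, replicate 1) and 69.5% of 118 reads (chr13:34312469, replicate 2). The highest Tubb2b sites without dTAG13 were likewise in 1 library each, at 86.5% of 52 reads (chr13:34314266) and 39.5% of 124 reads (chr13:34312208). In Tubb2a, chr13:34259329 was at 96.6% of 58 reads in dTAG13 replicate 1. In Tubb2b the highest levels overlapped between the groups, and in Tubb2a both dTAG13 libraries were lower, at 96.6% and 33.3% against 100% in both untreated libraries. In Tuba1c the highest dTAG13 sites were chr15:98928197, at 66.7% of 69 reads, and chr15:98935285, at 61.9% of 84 reads, above the highest untreated levels of 47.0% (chr15:98935986) and 51.8%. In Tubb5 the highest were chr17:36146176, at 56.3% of 238 reads, and the shared site at 46.6% of 206 reads. Tuba1c was thus the gene whose highest level was greater in both dTAG13 libraries, although its deep replicated site was not.

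The other genes had their highest dTAG13 levels lower down. In Actb they were 27.5% of 91 reads (chr5:142891003) and 38.4% of 237 reads (chr5:142891169). In Actg1 they were 23.2% at chr11:120238560 and 37.1% of 70 reads (chr11:120238475), and in Tubb4b 36.5% of 52 reads (chr2:25113035) and 31.8% of 110 reads (chr2:25113172). In both actins and Tubb4b these levels lay below the highest level of each untreated library. Tuba1a reached 52.6% of 57 reads (chr15:98849444) and 56.4% of 55 reads (chr15:98848340) without and 27.8% of 474 reads (chr15:98848605) and 27.4% with dTAG13, without overlap. Tuba1b reached 60.4% and 28.8% of 66 reads (chr15:98830666) without and 20.9% of 950 reads (chr15:98829479) and 33.6% with dTAG13. Tubb3 reached 45.1% and 69.5% of 59 reads (chr8:124148345) without and 38.1% of 84 reads (chr8:124147834) and 53.6% of 56 reads (chr8:124148728) with dTAG13. In Tuba1b and Tubb3 the groups overlapped. In all, 6 of the 10 genes had a lower highest level in both dTAG13 libraries than in both untreated ones, against 15.1% of 10392 genes, and 1, Tuba1c, a higher one, against 15.6%. With sites of 15 reads or more, 4 genes were lower (Actg1, Tubb5, Tubb2a and Tubb4b, 6.69% of all genes) and 3 were higher (Tuba1b, Tuba1c and Tubb3, 8.55%). The levels of Actb (67.8% and 90% against 69.0% and 38.4%) and Tuba1a (92.6% and 56.4% against 27.8% and 100%) then overlapped.

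The 7 sites listed in all 4 libraries were the only ones whose change could be tested with every library, and none passed. They lay in Actg1 (3 sites), Tubb5 (2), Tuba1a (1) and Tuba1c (1). The quasi-binomial model called 0 of the 7 at an adjusted p under 0.05, and 0 had an unadjusted p under 0.05. Over all 2321 sites tested, 2.28% were called in either direction, 2.2% lower and 0.0862% higher. Inside genes the shares were 4.19%, 4.11% and 0.0838%. The median change of the 7 sites was -1.66 percentage points, and that of all tested sites inside genes was -0.11 points. Being listed in every library, these sites were at 10% or more with dTAG13 by construction.

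Tubb5 at chr17:36147589 was the most even of them, at 19.4% and 18.8% without and 19.4% and 17.7% with dTAG13 (2513 to 5619 reads per library). It stood at 19.1% ± 0.43 and 18.5% ± 1.24 (SD, n = 2 each; quasi-binomial adjusted p = 0.901). The groups overlapped, and the difference was smaller than the spread with dTAG13. Actg1 at chr11:120238796 was at 18.0% and 15.4% without and 12.3% and 13.5% with dTAG13, without overlap. Its change of -3.83 points did not pass (adjusted p = 0.549). Actg1 at chr11:120238560 was at 13.1% and 12.5% without and 23.2% and 14.2% with dTAG13, also without overlap (adjusted p = 0.753). The share of all tested sites without overlap was not computed, so the lack of overlap is not read as particular to these sites. Fisher's exact test on summed replicates takes no account of replicate spread, and with it these 2 Actg1 sites passed, one lower and one higher (adjusted p = 0.00112 and 0.00416).

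The remaining 4 sites overlapped between groups. Actg1 at chr11:120237932 was at 16.9% and 11.6% without and 12.2% and 14.2% with dTAG13. Tuba1a at chr15:98848744 was at 23.9% and 23.6% without and 16.4% and 27.4% with dTAG13. Tubb5 at chr17:36144842, 9 bases from the 3′-most listed position of the gene, was at 35.9% and 34.4% without and 20.4% and 46.6% with dTAG13. For both, the untreated replicates agreed closely while the dTAG13 replicates lay on either side of them. Tuba1c at chr15:98935067 was at 45.2% and 28.7% without and 45.5% and 20.0% with dTAG13, of which the third value rests on 22 reads. Adjusted p for these 4 sites lay between 0.901 and 0.998.

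Reads summed per gene over the same tested sites gave the same result. For Tuba1a and Tuba1c, with 1 tested site each, these are the reads of the site test again. Actg1 was at 14.9% ± 2.77 without and 13.7% ± 0.22 with dTAG13 over its 3 sites, and Tubb5 at 20.6% ± 0.03 and 19.3% ± 0.26 over its 2 (SD, n = 2 each). With the quasi-binomial model 0 of 4 member genes passed, with adjusted p of 0.914 for Actg1, 0.625 for Tubb5, 0.975 for Tuba1a and 0.861 for Tuba1c. None of the 4 had an unadjusted p under 0.05, and 4.53% of the 1016 genes tested were called. Without dTAG13 replicate 1 the summed Tubb5 change was -31.5 points, and without dTAG13 replicate 2 that of Tuba1c was -36.0 points, since more sites were then listed in every library used. Neither passed.

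The stronger sites could be tested only with a library left out. Without dTAG13 replicate 2, Actb at chr5:142889288 differed by -22.7 points, between 32.8% ± 1.08 (SD, n = 2) and 10.1% (unadjusted p = 0.00170, adjusted p = 0.140 in the quasi-binomial model). In the same fit Tuba1c at chr15:98935574 differed by -37.5 points (unadjusted p = 0.00577, adjusted p = 0.179 in the quasi-binomial model). Without dTAG13 replicate 1, Tubb5 at chr17:36146345 differed by -68.3 points and Tubb2a at chr13:34258448 by -66.4 points (quasi-binomial adjusted p = 0.189 and 0.164). In all 4 cases the dTAG13 value was far outside the range of the untreated pair, but the fits leave 1 library in a group, which is assumed to vary like the other. Each of these fits called 0 of 11 member sites and 0% of all sites tested, 4260 and 4636, so the absence of member calls there is not read as stability. Not every site was lower in these fits. Without dTAG13 replicate 2, Actg1 at chr11:120238560 differed by 10.4 points. Tuba1a at chr15:98848744 differed by -7.38 points without dTAG13 replicate 2 and by 3.62 points without dTAG13 replicate 1. For Tubb5 at chr17:36144842 these changes were -14.8 and 11.5 points.

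Gene coverage, deposited per gene without a stated definition, ordered the members as follows. The order is not read as one of abundance, since how reads shared by similar genes and their copies were counted is not given. Tubb5 was highest, at 4099 and 4828 without and 2614 and 3767 with dTAG13. Actg1 followed at 2922 and 3535 without and 1799 and 2605 with dTAG13. Tuba1a was at 1800 and 2226 without and 1229 and 1631 with dTAG13. All 3 genes had both dTAG13 values below both untreated values. Tuba1b was at 1703 and 2012 without and 1277 and 1726 with dTAG13, so it overlapped both between groups and with Tuba1a. Actb was at 1134 and 1266 without and 527.4 and 706.5 with dTAG13, the widest gap of the 10. Tuba1c was at 506.4 and 561.4 against 351.9 and 409.0, and Tubb2b, which overlapped it, at 402.7 and 609.7 against 322.8 and 527.1. Tubb3 was at 235.4 and 222.2 against 143.1 and 243.9. Tubb4b (99.4 and 119.1 against 90.8 and 116.3) and Tubb2a (88.3 and 66.6 against 58.0 and 92.0) were the lowest. The least covered members, Tubb2b, Tubb3, Tubb4b and Tubb2a, thus overlapped between groups, and so did Tuba1b. The remaining members did not. These are raw values, not normalised to depth, and the share of all genes without overlap on them was not taken.

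**Figure D3:**
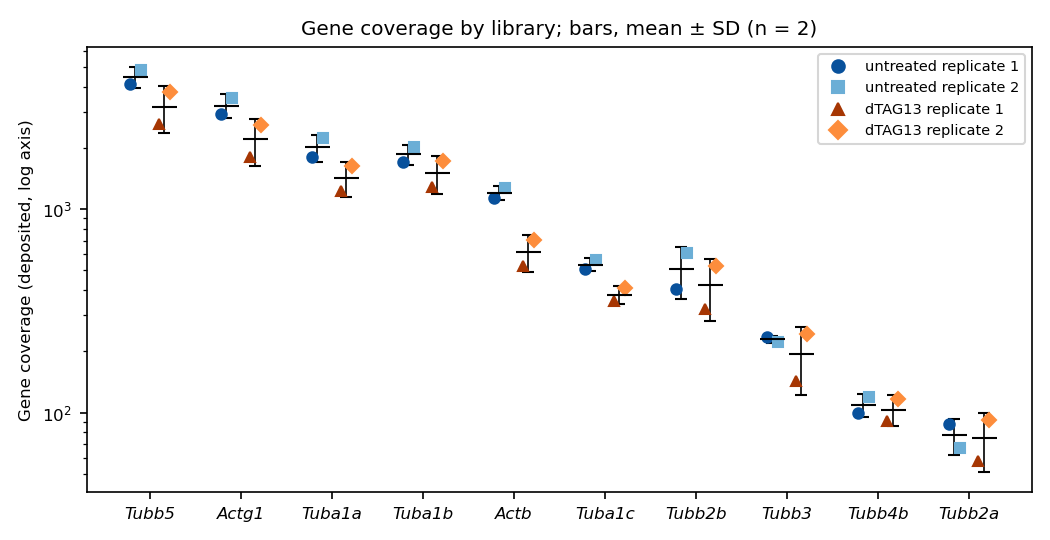
Deposited gene coverage of the 10 genes (y axis, log scale) in each library, ordered by the untreated mean, with bars for the mean ± SD of 2 libraries. Actb shows the widest gap between untreated (1134 and 1266) and dTAG13 (527.4 and 706.5).

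Coverage is not normalised to depth, so it was tested relative to each library's median gene (99.2 and 103.2 in the untreated, 82.4 and 110.9 in the dTAG13 libraries). In the limma test of these centred log2 values, 0 of the 10 genes and 0 of 12520 genes (0%) passed at an adjusted p under 0.05. At an unadjusted p under 0.05 there were 1 member, Actb, and 1595 genes. Actb had a log2 change of -0.89 ± 0.20 (SE, n = 2 per group; limma adjusted p = 0.363), at percentile 1.46 of the changes of all genes. Actg1 followed at -0.49 ± 0.21, then Tubb5 at -0.42 ± 0.20, Tuba1a at -0.42 ± 0.21 and Tuba1c at -0.41 ± 0.21, with limma adjusted p of 0.396 to 0.446. Tuba1b was at -0.24, Tubb3 at -0.21 and Tubb2b at -0.18, and Tubb4b and Tubb2a were at -0.00095 and 0.012. The median change of the 10 genes was -0.32, that of all genes -0.067. In 6 of the 10 genes, both actins, the 3 alpha-tubulins and Tubb5, both centred dTAG13 values lay below both untreated values, as they did in 29.2% of all genes. In bulk RNA, fewer cells expressing a gene and less RNA per cell cannot be told apart.

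The 3 genes with a coverage pattern over the 4 libraries closest to that of Actb were found by the Euclidean distance of centred log2 values among 12518 genes. They were Anp32e (distance 0.043), Gm5855 (0.053) and LOC118568100 (0.056). Anp32e, which encodes a histone chaperone, was at 1010 and 1121 without and 454.6 and 633.2 with dTAG13. This likeness rests on 4 values per gene.

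The unconverted share of a gene, 100% minus its deposited conversion rate, counts methylated and incompletely converted A together. In Tubb2a it was 9.25% and 6.81% without and 3.89% and 3.38% with dTAG13, and in Tubb4b 5.76% and 6.65% without and 4.31% and 3.22% with dTAG13. These least covered members had the highest untreated shares and the widest gaps. Actb was at 3.95% and 3.27% against 3.13% and 2.69%, Actg1 at 4.13% and 3.82% against 2.67% and 3.38%, and Tuba1c at 5.18% and 4.48% against 3.45% and 3.71%. Tubb2b was at 4.66% and 4.61% against 3.49% and 3.77%, and Tuba1b at 4.21% and 4.21% against 3.73% and 3.32%. Tubb5 was closer, at 4.46% and 3.99% against 3.67% and 3.93%. In these 8 genes both dTAG13 values lay below both untreated values, as in 40.9% of all genes. Both lay above in 0 of the 10 and in 6.05% of all genes. The other 2 overlapped, with Tuba1a at 3.81% and 3.31% against 3.10% and 3.73% and Tubb3 at 4.88% and 4.09% against 4.32% and 4.53%.

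With limma on the log2 unconverted share, 0 of the 10 genes and 0 of 12520 (0%) passed. At an unadjusted p under 0.05 there were 1 member and 1548 genes. The member was Tubb2a, with a log2 change of -1.11 ± 0.29 (SE, n = 2 per group; limma adjusted p = 0.367). The median change was -0.32 over the 10 genes and -0.28 over all genes, and the median gene had a conversion rate of 95.8% and 96.2% in the untreated and 96.9% and 96.7% in the dTAG13 libraries. The part of chemical conversion in these values was not tested. With each library centred on its median gene, 5 members (Actb, Tuba1a, Tuba1b, Tubb5 and Tubb3) turned to positive changes, of 0.0024 to 0.29, and 0 passed.

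**Figure D4:**
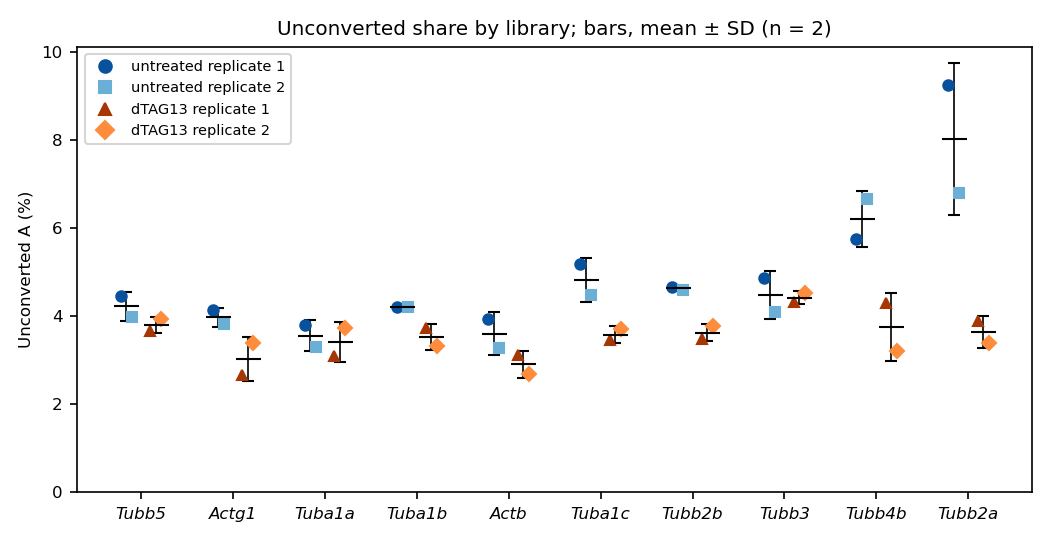
Unconverted A of the 10 genes (y axis, percent) in each library, in the order of the coverage plot, with bars for the mean ± SD of 2 libraries. Tubb2a has means of 8.03% and 3.64% and Tubb4b means of 6.21% and 3.76% without and with dTAG13, neither past the test, while Tuba1a and Tubb3 overlap between groups.

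Genes that work with tubulin and actin were set beside the members by lists. In the tubulin folding list, the chaperonin, prefoldin and tubulin cofactors that fold new tubulin, 20 of 20 genes had coverage in all 4 libraries and 0 passed in limma. The median log2 coverage change was -0.46, with 8 genes lower and 1 higher at an unadjusted p under 0.05. Over all genes 8.34% were lower and 4.4% higher by this measure. The chaperonin subunit Cct3 was at 510.3 and 641.3 without and 234.9 and 361.0 with dTAG13. Cct8 was at 1184 and 1115 against 542.6 and 828.5. Both are given as raw coverage, not normalised to depth. The cofactor Tbcc was the 1 higher gene, at 83.2 and 112.1 against 177.7 and 225.7. Of 2 tested sites in this list 0 passed in the quasi-binomial model. The site in Cct4, chr11:22940848, was at 11.2% ± 1.09 without and 30.9% ± 3.92 with dTAG13 (SD, n = 2 each; quasi-binomial adjusted p = 0.0765).

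In the actin-binding list 30 of 31 genes had coverage in all 4 libraries, 0 passed in limma and the median change was -0.41. At an unadjusted p under 0.05, 9 were lower and 0 higher, against 8.34% and 4.4% of all genes. Cfl1, the filament-severing cofilin, was at 5420 and 6091 without and 2965 and 4450 with dTAG13, and the actin monomer binder Pfn1 at 1583 and 1438 against 608.9 and 1075. Of 13 tested sites 1 was lower (2.2% of all sites tested, 4.11% inside genes) and 0 were higher in the quasi-binomial model. It lay in Tmsb10, a thymosin that binds actin monomers, at chr6:72934416, and fell from 74.7% ± 1.85 to 37.4% ± 5.64 (SD, n = 2 each; quasi-binomial adjusted p = 0.0232). The call was lost with the replicate number as a block (quasi-binomial adjusted p = 0.192) and without any 1 of the 4 libraries, where the change was -41.2 to -33.3 points. No site of the whole series was called in any of these fits, so the loss is not particular to this site. Another Tmsb10 site, chr6:72934570, was at 16.1% ± 0.96 without and 21.3% ± 0.05 with dTAG13 (quasi-binomial adjusted p = 0.454). The microtubule-associated list (12 of 16 genes with coverage) had a median change of -0.18 with 0 genes at an unadjusted p under 0.05, and the autoregulation genes Ttc5, Scaper and Cnot11 a median of -0.19 with 0. Of the other tubulins 7 of 12 had coverage in all 4 libraries (median -0.22, 2 lower and 1 higher unadjusted). Of the other actins and actin-related genes, 5 of 8 did (median -0.66, 3 lower unadjusted: the actin-related Actl6a, Actr2 and Actr3). None of these genes passed in limma.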

How the data were processed

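The authors deposited 1 site table per library, without pooling replicates. Per the file headers, the counts are the A and G reads and the A reads of each listed position, not normalised. The deposited fraction of A is the level and matched the ratio of the counts, and a second deposited fraction gives each gene's conversion rate. The coverage signal deposited by the authors is 1 value per gene. Each member's value equalled a fraction of whole numbers, as a mean over positions would, but its definition is not stated. The p-values deposited by the authors were used in 1 alternative. The aligner, the caller and duplicate handling are not given in the sources used here. The submitters' processing notes name mm10, but 0 of 454 member positions fell inside the GRCm38 (mm10) interval of their gene in RefSeq, so coordinates are given as listed and no sequence, exon or UTR was assigned. All 10 names are RefSeq symbols.

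Site levels were tested over all 2321 sites listed in every library with at least 20 reads in each. The test was a quasi-binomial model of A and G reads with dispersion moderated by limma 3.58.1 in R 4.3.3, held at 1 or above, and a two-sided F test. Reads summed per gene were tested alike. Coverage (log2, median-centred) and the unconverted share (log2 of percent + 0.1) were tested with limma over 12520 genes. Values of p were adjusted by Benjamini-Hochberg over all features, with a threshold of 0.05. The members, the lists and the rule for naming sites (those listed in all 4 libraries, or in both libraries of one group and neither of the other with at least 50 reads, and the highest level per gene and library with at least 50 reads) were chosen with earlier results of these data known. The naming rule also takes the 3 genes nearest to Actb in coverage; other sites were named after their values were seen. Replicate numbers are not stated to pair the libraries, and the main tests took them as unpaired. Deviations of same-numbered libraries correlated at 0.038 (levels), 0.0023 (coverage) and 0.0078 (unconverted share). Such low values cannot exclude pairing, since noise within each library also lowers them.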

Additional observations from a re-analysis of the deposited data

How the results depend on the processing

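The ratio of listed sites (0.971) ran from 0.890 to 1.068 when 1 library was left out, and was above 1 without untreated replicate 1. It stayed below 1 under the other alternatives. The ratio of sites at 40% or more (0.646) ran from 0.583 to 0.708 without 1 library, and was 0.469 with at least 50 reads, 0.143 with at least 200, 0.826 at 60% or more and 1.6 at 90% or more, where the order turned. Recovery (0.705) ran from 0.645 to 0.765 without 1 library and was 0.292 at 40% or more. No member site, gene level, coverage or unconverted share was called under any alternative, except 2 sites with Fisher's exact test on summed reads. With the replicate number as a block, 0 of 7 member sites and 0 member genes passed, and the calls over all sites went from 53 to 0.

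Several uncalled changes altered sign. Without centring, the log2 coverage change of Tubb2a was -0.070, and the median over all genes was -0.15. With mean log2 odds, the gene level change of Actg1 was 0.024. With unconverted shares centred, Actb was at 0.0024, Tuba1a at 0.24, Tuba1b at 0.051, Tubb5 at 0.15 and Tubb3 at 0.29. Leaving out 1 library gave level changes of -3.67 to 1.59 points at Actg1 120237932, -7.38 to 3.62 at Tuba1a 98848744, -16.98 to 8.47 at Tuba1c 98935067, -14.8 to 11.5 at Tubb5 36144842 and -1.43 to 0.32 at Tubb5 36147589. Gene levels changed by -2.82 to 0.83 points in Actg1, -7.38 to 3.62 in Tuba1a, -36.0 to 4.01 in Tuba1c and -31.5 to -1.33 in Tubb5. Log2 coverage changes were -0.22 to 0.24 in Tubb2a, -0.45 to 0.088 in Tubb2b and -0.10 to 0.10 in Tubb4b, and unconverted changes -0.19 to 0.070 in Tuba1a and -0.14 to 0.11 in Tubb3. The causes were not tested, beyond the fewer samples or other sites of each alternative. In the 4 fits without 1 library, no site in the whole series was called, so those fits cannot show stability. Depth at unlisted positions is unknown, which limits every statement on sites missing from a table.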

Other observations

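Positions that the tables place outside genes were also listed around the members, on the same strand and within 2000 bases of their listed spans. Around Actb there were 9 and 11 such listings without and 2 and 2 with dTAG13, of which 19 lay inside the listed span of the gene. None of them recurred in a second library, and none had more than 171 reads. Around Actg1 there were 4 and 10 without and 0 and 3 with dTAG13, and 15 lay inside the span. Around Tubb5 there were 5 and 6 against 3 and 4, around Tuba1b 4 and 5 against 1 and 7, and around Tubb2a none in any library. Over the whole series, listings outside genes numbered 74866 and 78288 without and 41295 and 61134 with dTAG13, so they were fewer with dTAG13 there too.

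Copies of the members were listed under names of their own. Tubb4b-ps1, a named pseudogene of Tubb4b, had 14 and 18 sites without and 23 and 23 with dTAG13, with up to 3801 reads at a site, which is more than the 509 reads that any Tubb4b site reached. Actg-ps1 had 4 and 9 sites without and 4 and 7 with dTAG13, Tubb2a-ps2 had 3 and 5 against 7 and 4, and Tubb3-ps1 had 3 and 8 against 3 and 7. Reads of a parent gene and its copy can be exchanged where they are near-identical, and which site counts this touches was not tested.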
